A study of Mus musculus with 7 samples.

Results

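The genes of the cytosolic ribosomal proteins, the proteins of the ribosomes outside mitochondria, were followed in mouse CD8+ T cells exposed to small extracellular vesicles (sEVs). A row of the count table was a member if its symbol had the form of a small-subunit (Rps) or large-subunit (Rpl) protein gene and its mean was at least 20 counts per library. Symbols of 90 rows had that form, and 82 of them passed the minimum, 33 for the small and 49 for the large subunit, out of 55367 genes in the table and 12623 genes that were tested. The 8 symbols below the minimum were Rps4l, with a mean of 7.29 counts, and Rps3a3, Rpl24, Rpl6l, Rpl32l, Rpl3l, Rps12l1 and Rpl10l, with means of 0 to 3 counts, whereas the members nearest to the limit were Rps3a2 at 21.1 counts and Rpl39l at 30.6 counts. Such low means, that of Rpl24 included, stand for the reads assigned to a symbol, and whether they reflect its mRNA level was not tested. The rule used symbols and mean counts over all libraries and no difference between groups. All 82 symbols matched the GENCODE vM21 annotation on GRCm38, which lists 81 as protein-coding genes and Rps3a2 as a processed pseudogene.

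The 7 libraries came from CD8+ T cells sorted from spleens of Foxp3 YFP/cre mice, which express YFP and Cre from the Foxp3 gene of regulatory T cells, and exposed to sEVs for 48 hours. LME-sEVs were prepared from leukemic spleens of the Eμ-TCL1 line, in which an immunoglobulin enhancer and promoter drive human TCL1 in B cells, as a model of chronic lymphocytic leukemia. HCME-sEVs came from the spleens of healthy mice and served as controls. The labels assign 4 libraries to HCME-sEV cultures and 3 to LME-sEV cultures and were followed here, although the study's text gives both sizes the other way round. All cultures received 100 μg/mL of sEVs per the labels, whereas the methods refer to the amount present in each kind of spleen. The methods describe culture of CD8+ T cells on anti-CD3 with IL2 and CD28 antibody, so both groups shared that stimulus. No culture without vesicles was analysed here, so each difference is between both vesicle sources. Per the methods, mice were young adults of both sexes, matched within an experiment, unless stated otherwise. Whether libraries of a group came from separate animals is not given in the sources used here, so p-values measure the spread between these libraries, which may be technical.

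Each cytosolic ribosome joins a small subunit, which decodes mRNA, to a large subunit, which forms the peptide bond. Activated T cells make many ribosomes before they divide, and the ribosomal protein mRNAs are among the most abundant in a lymphocyte. Most of these mRNAs begin with a C followed by a run of pyrimidines, the terminal oligopyrimidine (TOP) motif, through which the kinase complex mTORC1 and the RNA-binding protein LARP1 control their translation and storage. A change in the mRNA level and a change in its translation are thus separate measures, and only the first was measured here.

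The sequence around the start of the transcript is shown because the TOP motif lies at the start of most of these mRNAs. Each line gives 30 bases of the sense strand around the start of the first transcript listed by RefSeq (GRCm38.p6), 15 before and 15 from the start site on, with the longest run of a C followed by at least 5 pyrimidines in capitals. The genes are members described below that did and did not have such a run.
Rpl28 (chr7:4792950-4792979, plus strand): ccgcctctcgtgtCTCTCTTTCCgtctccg
Rps6 (chr4:86857353-86857382, minus strand): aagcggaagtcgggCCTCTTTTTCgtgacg
Rps27 (chr3:90213634-90213663, minus strand): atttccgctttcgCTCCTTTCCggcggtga
Rps27l (chr9:66946071-66946100, plus strand): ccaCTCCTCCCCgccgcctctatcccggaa
Rpl22l1 (chr3:28805493-28805522, plus strand): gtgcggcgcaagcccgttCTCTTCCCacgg
Rpl22 (chr4:152325711-152325740, plus strand): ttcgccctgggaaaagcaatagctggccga
Rps15 (chr10:80292416-80292445, plus strand): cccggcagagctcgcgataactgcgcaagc
Of the 82 members, 61 had a start in this table, and 33 of the 61 (54.1%) held a run in the 30 bases, compared with 22.4% of the 27025 genes in the table. The run search used the sense strand only and depends on the annotated start, which can lie some bases from the start that the cells use. A run could lie wholly before the annotated start, as in Rps27l, or begin after it, as in Rpl22l1. A run in the window is therefore not the same as a TOP motif.

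The libraries held 3689831 to 5030522 counts of distinct molecules after collapsing by UMI (unique molecular identifier). Levels are given as TMM-normalized CPM (counts scaled to a common library total), and because only 3′ ends were read, a level has no term for gene length. T-cell markers were present in every library, with a summed level of 4102 to 4157 CPM with HCME-sEVs and 4285 to 4772 CPM with LME-sEVs, and 2 of the 9 (Cd3e and Cd3g) rose. Some markers of other cells also rose with LME-sEVs. They were 2 of 7 tested B-cell markers (Ighm and Igkc) and 3 of 6 basophil markers (Prg2, Prss34 and Mcpt8). Of the erythroid and platelet markers, 3 of 7 rose (Ppbp, Pf4 and Hba-a1), as did Zbtb7b of the CD4 list. Over all tested genes, 3.75% rose by the same rule, an edgeR adjusted p under 0.05. In each of the B-cell, basophil, and erythroid and platelet lists, 1 tested marker had a negative log2 fold change (-0.38, -0.26 and -0.012). Ighm had 913 to 1674 counts per library, and no other B-cell marker exceeded 56. Pax5, too low to be tested, had 2 to 6 counts with HCME-sEVs and 1 in each LME-sEV library. With DESeq2, 0 basophil and 0 erythroid or platelet markers passed, and 1 T-cell marker. The erythroid and platelet count was 0 without HCME-sEV replicate 2, HCME-sEV replicate 4 or LME-sEV replicate 2 and 1 without LME-sEV replicate 1 or 3, and the basophil count was 1 without LME-sEV replicate 2. The T-cell count was 0 without LME-sEV replicate 2 or 3 and 1 without HCME-sEV replicate 1 or 4, and the B-cell count was 1 without HCME-sEV replicate 2, LME-sEV replicate 2 or LME-sEV replicate 3. Zbtb7b was lost without HCME-sEV replicate 1, HCME-sEV replicate 4 or any 1 LME-sEV library. The summed levels of the lists with HCME-sEVs and with LME-sEVs were 251 to 295 and 340 to 359 CPM for B cells, 5.52 to 35.1 and 29.0 to 45.9 CPM for basophils, 74.4 to 182 and 157 to 204 CPM for erythroid cells and platelets, and 6.96 to 9.36 and 13.1 to 17.4 CPM for 11 myeloid markers, of which 2 were tested and did not pass. The mouse gene Tcl1 had 0 counts in all 7 libraries, Cd79a had 0 in 6 of them and Cd4 had at most 3 counts. Reads were mapped to the mouse genome, so the value for Tcl1 does not show whether RNA of the human TCL1 transgene was present. The part of these cells in the ribosomal protein values was not tested. HCME-sEV replicate 1 stood apart from its group: over all genes its chi-square per degree of freedom against the other 3 HCME-sEV libraries was 4.12 to 6.02, compared with 2.12 to 3.63 among those 3.

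Transcripts of the 82 genes were a larger share of the RNA counted after LME-sEVs. They took 10.5%, 9.79%, 10.01% and 9.47% of all counts in HCME-sEV replicates 1 to 4 and 10.8%, 11.3% and 10.6% in LME-sEV replicates 1 to 3. The highest control, HCME-sEV replicate 1, lay just under LME-sEV replicate 3, and the other 3 controls lay clearly lower. The means were 9.95% ± 0.446 (SD, n = 4) and 10.9% ± 0.409 (SD, n = 3), a difference of 0.932 percentage points against a pooled SD between replicates of 0.431. As a share of counts on nuclear genes only, the difference was 0.918 percentage points, and mitochondrial transcripts took 6.48% to 7.67% of the HCME-sEV and 6.44% to 6.54% of the LME-sEV libraries. The small-subunit genes rose from 4.31% ± 0.189 to 4.71% ± 0.184 without overlap, whereas for the large subunit, at 5.64% ± 0.259 and 6.17% ± 0.225, HCME-sEV replicate 1 (5.996%) lay above LME-sEV replicate 3 (5.988%). On the TMM-normalized log2 scale, both subunits overlapped. There, the deviation of each gene from its mean over the 7 libraries was averaged over a subunit. For the small subunit it was -0.12 to 0.062 with HCME-sEVs and 0.016 to 0.090 with LME-sEVs. For the large subunit it was -0.14 to 0.059 and 0.020 to 0.11. HCME-sEV replicate 1 was the highest control in both. No test was applied to these shares and averages, because the genes were chosen together. In bulk RNA, more cells of a type and more RNA per cell cannot be told apart.

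**Figure D1:**
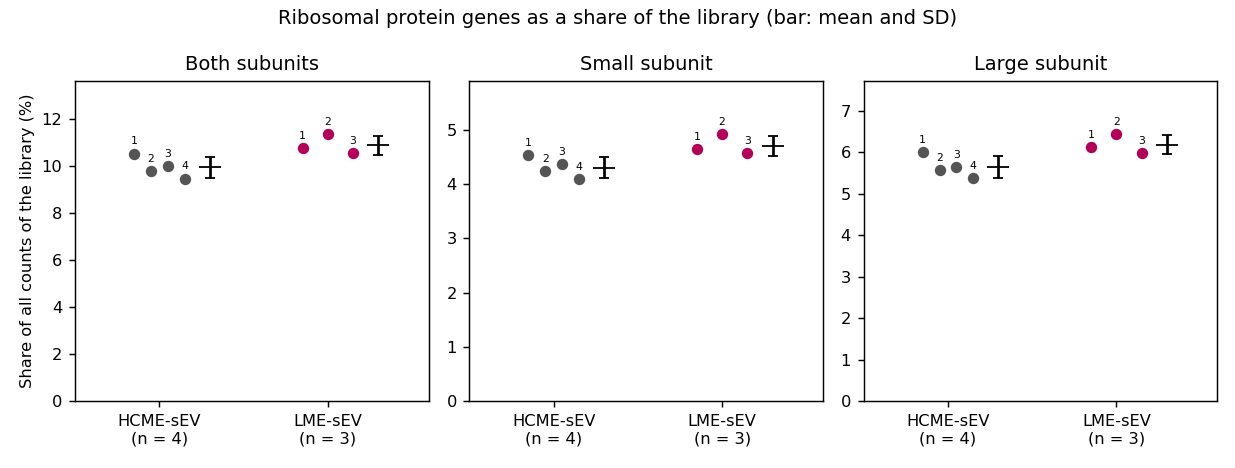
Ribosomal protein genes as a percentage of all counts of each library, for both subunits, the small subunit and the large subunit (points: libraries with their replicate number; bars: mean and SD). HCME-sEV replicate 1 is the highest control in each panel and lies beside the lowest LME-sEV library.

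Single genes differed by little. Of the 82 genes, 67 had a positive log2 fold change (LME-sEVs over HCME-sEVs), or 81.7% compared with 51.5% of all tested genes. Their median log2 fold change was 0.10 (0.09 for the small and 0.10 for the large subunit), against 0.0096 over all tested genes, and the single values spanned -0.39 to 0.37. At an adjusted p under 0.05 (edgeR quasi-likelihood test, Benjamini-Hochberg over 12623 genes), 5 of the 82 genes rose, 1 of 33 for the small and 4 of 49 for the large subunit. That is 6.10% of the members, and 3.75% of all tested genes rose by the same rule (8.96% changed in either direction). No member fell by edgeR, by DESeq2 or by limma-voom, compared with 5.21% of all tested genes by edgeR, and at an unadjusted p under 0.05 there were 17 members with a positive and 2 with a negative fold change, compared with 10.4% and 12.3% of all tested genes. No member reached the study's cut-off of a 2-fold change, that is a log2 fold change beyond 1, which 1.28% of all tested genes passed. All LME-sEV libraries lay above all HCME-sEV libraries for 14 of the 82 genes (17.1%, compared with 9.49% of all tested genes), and the reverse held for 0 (compared with 10.8%).

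The number of members that rose depended on single libraries. It was 8 without HCME-sEV replicate 1 (the 5 genes with Rpl5, Rps15a and Rps23 added), 2 without HCME-sEV replicate 2, 3 without replicate 3 and 3 without replicate 4. It was 2 without LME-sEV replicate 1, 0 without LME-sEV replicate 2 and 1 without LME-sEV replicate 3, and without LME-sEV replicate 2 the calls over all genes fell from 1131 to 391. Rpl28 remained called in 6 of these 7 fits, Rpl17 in 4, Rpl29 and Rpl3 in 2 each and Rps15 in 1. With library totals in place of TMM factors, 9 members rose. With libraries scaled to the summed counts of the 82 genes, Rpl28 alone rose and Rps27l alone fell.

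**Figure D2:**
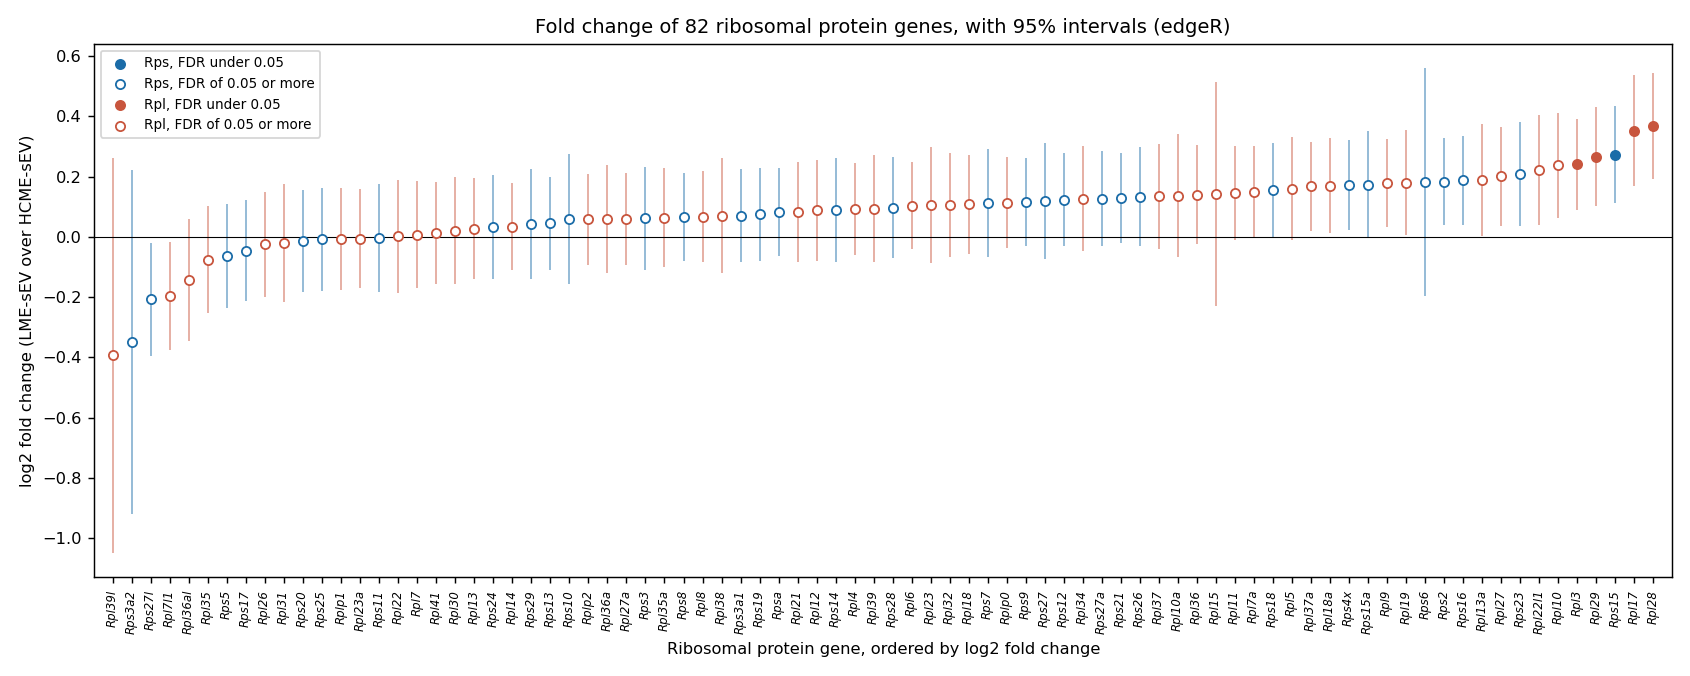
The log2 fold change (LME-sEV over HCME-sEV) of each of the 82 genes with its 95% interval, ordered from the lowest to the highest, with small-subunit genes in blue and large-subunit genes in red (filled: adjusted p under 0.05). The 5 filled genes, Rpl3, Rpl29, Rps15, Rpl17 and Rpl28, are at the upper end, and 4 paralogs and the pseudogene Rps3a2 are at the lower end.

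Rpl28, a large-subunit protein found in eukaryotes but not in bacteria, had the highest fold change. Its level was 735, 669, 568 and 729 CPM in HCME-sEV replicates 1 to 4 and 848, 906 and 863 CPM in LME-sEV replicates 1 to 3. All LME-sEV libraries lay above all controls. The log2 fold change was 0.37 (SE 0.0844, 95% interval 0.19 to 0.55, edgeR adjusted p = 0.00925), a 1.29-fold difference, and the exact permutation p was 0.0286, the smallest that 4 against 3 libraries can give. The gene lies at chr7:4792874-4795066 on the plus strand, and an exon of it overlaps Ube2s on the opposite strand.

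Rpl17, which lines the tunnel through which the new peptide leaves, had 731, 906, 834 and 762 CPM with HCME-sEVs and 892, 1103 and 1098 CPM with LME-sEVs. LME-sEV replicate 1 lay below HCME-sEV replicate 2, so the groups overlapped. On the log2 scale the difference was 0.35 (SE 0.0887, edgeR adjusted p = 0.0160), and the exact permutation p was 0.0857.

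Rps15 stands in the head of the small subunit, with a tail that reaches toward the decoding site. Its level was 1006, 891, 892 and 886 CPM with HCME-sEVs and 1070, 1209 and 1049 CPM with LME-sEVs. The groups did not overlap, and HCME-sEV replicate 1 lay between the other controls and the LME-sEV libraries. The log2 fold change was 0.27 (SE 0.0770, edgeR adjusted p = 0.0307, exact permutation p = 0.0571), and the gene lies at chr10:80292453-80294114 on the plus strand.

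Rpl29, another eukaryote-specific protein of the large subunit, had 245, 204, 217 and 235 CPM with HCME-sEVs and 262, 275 and 276 CPM with LME-sEVs. All LME-sEV libraries were higher, with a log2 fold change of 0.27 (SE 0.0789, edgeR adjusted p = 0.0392). Its 3′ end has 50 near-identical copies in the annotation, the most among the 5 genes, although these copies took only 3.43% of the counts of gene and copies together.

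Rpl3 is one of the proteins closest to the site of peptide bond formation. Its level was 1120, 1094, 1031 and 1145 CPM with HCME-sEVs and 1252, 1369 and 1268 CPM with LME-sEVs. The groups did not overlap, and the log2 fold change was 0.24 (SE 0.0720, edgeR adjusted p = 0.0410). An annotated small nucleolar RNA overlaps an exon of Rpl3 on the same strand.

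**Figure D3:**
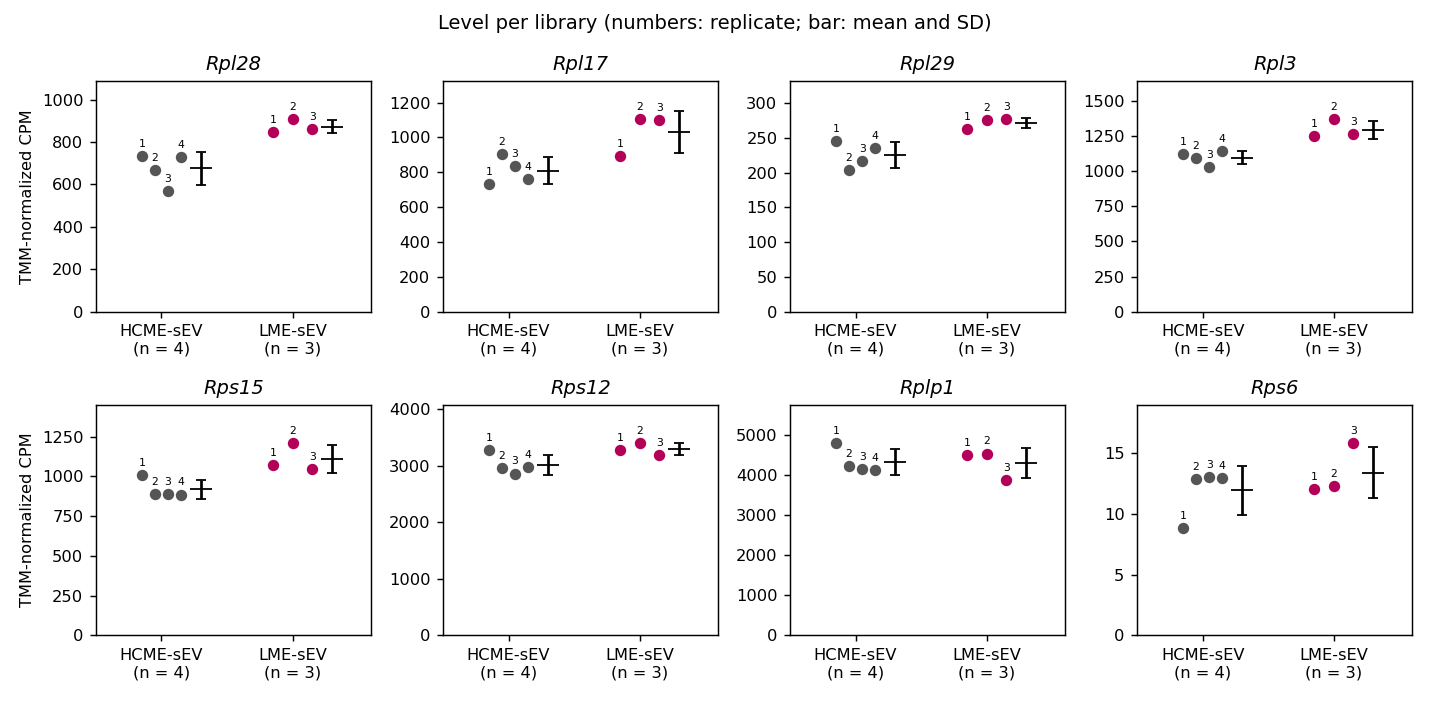
TMM-normalized CPM in each library for the 5 genes that rose, the most abundant small-subunit gene Rps12, the most abundant member Rplp1, and Rps6 (points: libraries with their replicate number; bars: mean and SD; each panel starts at 0). LME-sEV libraries lie above all controls for Rpl28, Rpl29, Rpl3 and Rps15, whereas the groups overlap in the other panels.

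The most abundant members changed little. Rplp1, an acidic protein of the stalk that recruits translation factors, had 4800, 4221, 4162 and 4135 CPM with HCME-sEVs and 4504, 4542 and 3885 CPM with LME-sEVs. The groups overlapped throughout, and the difference had a 95% interval of -0.18 to 0.16 on the log2 scale. Rpl23a, which sits at the rim of the exit tunnel, had means of 3004 ± 236 CPM (SD, n = 4) and 2992 ± 165 CPM (SD, n = 3), with an interval of -0.17 to 0.16. Rps20, in the head of the small subunit, had means of 2998 ± 271 and 2969 ± 151 CPM, with an interval of -0.18 to 0.15. Rps12, of the beak of the small subunit, had means of 3019 ± 179 and 3290 ± 104 CPM, with an interval of -0.03 to 0.28 and an edgeR adjusted p of 0.339. For these genes, a log2 difference of more than 0.3 lay outside the interval in either direction.

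Some members were also grouped by their site on the ribosome, and Rpl28, Rpl29 and Rpl3 were in none of these groups. In the stalk of the large subunit, none of the 4 genes passed the test by edgeR, DESeq2 or limma-voom. Rplp0, the scaffold of the stalk, had a log2 fold change of 0.11 (edgeR adjusted p = 0.383). Rplp2, the partner of Rplp1, had 0.06 (edgeR adjusted p = 0.691), and Rpl12, at the base of the stalk, had 0.09 (edgeR adjusted p = 0.561). Rpl5 and Rpl11, which carry the smallest ribosomal RNA into the large subunit and bind the p53 regulator MDM2 when free, had log2 fold changes of 0.16 (edgeR adjusted p = 0.256) and 0.14 (edgeR adjusted p = 0.263). For Rpl5, HCME-sEV replicate 1 (800 CPM) lay above all LME-sEV libraries (787, 745 and 799 CPM), whereas HCME-sEV replicates 2 to 4 (698, 631 and 653 CPM) lay below them. Without HCME-sEV replicate 1 the log2 fold change of Rpl5 was 0.23 (edgeR adjusted p = 0.0409).

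Around the exit tunnel, Rpl17 was the 1 of 8 genes that rose, and 4 of the 8 had negative fold changes, with a median of 0.04. In the group for the mRNA entry and decoding side of the small subunit, all 5 genes had positive fold changes. Their median was 0.18, and Rps15 was the 1 that rose. On the side where mRNA leaves, 3 of 4 genes had positive fold changes, with a median of 0.09, and none of the 4 passed the edgeR test. The 3 genes of the beak had values of 0.06 to 0.13. Differences between these sites were not tested, and 3.75% of all tested genes rose by the same rule. Rps27a, which is made as a fusion with ubiquitin, had a log2 fold change of 0.13 (edgeR adjusted p = 0.334).

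Among the members, the lowest fold changes belonged to paralogs and a pseudogene rather than to the standard proteins. Of the 82 genes, 5 are paralogs whose products can stand in for, or resemble, a standard protein, and 1 is the pseudogene Rps3a2. The other 76 had a median log2 fold change of 0.10, of which 66 were positive. The 6 had a median of -0.20, with 1 positive, and the 5 lowest of all 82 genes were among them. Their levels were also lower, with a median of 100 CPM against 1205 CPM for the 76. A further paralog, Rps4l, was tested but lay below the minimum for members. It had a log2 fold change of 0.33, the highest among the tested paralogs, and did not pass the edgeR test. Without a block for the replicate number, none of the 6 passed the edgeR test (3 had an unadjusted p under 0.05), nor the DESeq2 or limma-voom tests. Rps27l, a p53-responsive relative of Rps27, had 460, 446, 408 and 342 CPM with HCME-sEVs and 350, 371 and 354 CPM with LME-sEVs. HCME-sEV replicate 4 lay below all LME-sEV libraries and the other 3 controls lay above them. The log2 fold change was -0.21 (95% interval -0.39 to -0.02, edgeR adjusted p = 0.167), and it was -0.29 without HCME-sEV replicate 4 (edgeR adjusted p = 0.0321). With the replicate number as a block, Rps27l fell, with a log2 fold change of -0.29 (edgeR adjusted p = 0.00883). Rpl22l1, the paralog of the T-cell development factor Rpl22, went the other way, with 467, 445, 439 and 382 CPM with HCME-sEVs and 475, 578 and 464 CPM with LME-sEVs. Its log2 fold change was 0.22 (95% interval 0.04 to 0.41, edgeR adjusted p = 0.127), and the groups overlapped by a few CPM. Rpl7l1 had a log2 fold change of -0.20 (edgeR adjusted p = 0.175) and Rpl36al of -0.14 (edgeR adjusted p = 0.414). Rpl39l, best known from the testis, had only 3.72 to 13.7 CPM in any library and a 95% interval of -1.05 to 0.26, so that a difference was not detectable at this depth.

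The ratio of a paralog to its parent gene does not depend on how libraries are scaled. Rpl22l1 had 35.5%, 37.1%, 38.7% and 38.8% of the counts of Rpl22 in HCME-sEV replicates 1 to 4 and 40.8%, 46.0% and 43.7% in LME-sEV replicates 1 to 3. The groups did not overlap, and the log2 ratio was higher by 0.21 (exact permutation p = 0.0286, the smallest that these libraries can give). Rps27l had 38.8%, 39.5%, 32.1% and 35.8% of the counts of Rps27 with HCME-sEVs and 30.6%, 26.8% and 30.4% with LME-sEVs. Here too the groups did not overlap, with all LME-sEV libraries lower, and the log2 ratio differed by -0.32 (exact permutation p = 0.0571). Relative to their parents, Rpl7l1 differed by -0.21 (exact permutation p = 0.114), Rpl36al by -0.21 (exact permutation p = 0.143) and Rpl39l by -0.33 (exact permutation p = 0.486) on the log2 scale, with overlapping groups. These 5 ratios were added after the levels had been seen, and their p-values are unadjusted. Among all tested single genes, 9.49% had all LME-sEV libraries above all HCME-sEV libraries, and 10.8% had all of them below. No such share was computed for ratios of gene pairs, so whether the separation for Rpl22l1 and Rps27l is unusual was not tested. The parent genes themselves had log2 fold changes of 0.0021 for Rpl22, 0.12 for Rps27, 0.0066 for Rpl7, 0.06 for Rpl36a and 0.09 for Rpl39, none past the edgeR test (adjusted p = 0.488 to 0.992).

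**Figure D4:**
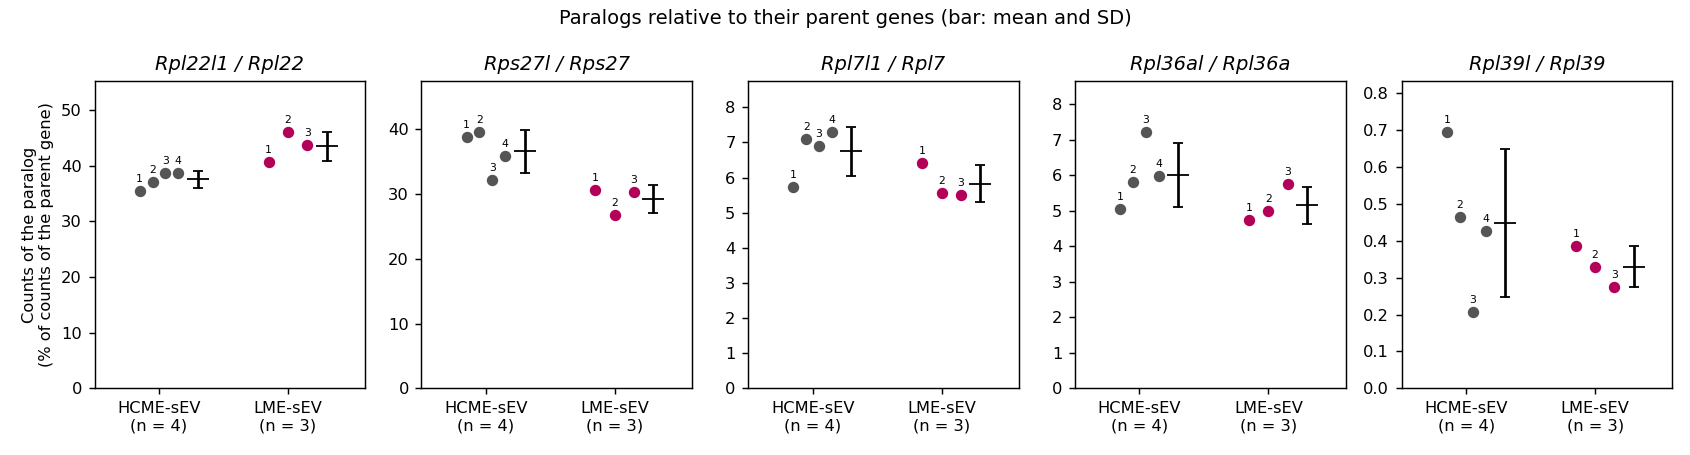
Counts of each paralog as a percentage of the counts of its parent gene in each library (points: libraries with their replicate number; bars: mean and SD; each panel starts at 0 and has its own scale). The groups separate for Rpl22l1, from 37.5% ± 1.57 to 43.5% ± 2.64, and for Rps27l, from 36.6% ± 3.38 to 29.3% ± 2.12. How often ratios of other gene pairs separate was not computed.

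Pseudogenes made some members uncertain. The last 300 bases of 62 of the 82 genes match another annotated transcript at 95% identity or more over at least 200 bases, and reads from such ends can be split between gene and copy or discarded. The copies took over 1% of the counts of gene and copies together for 23 genes and over 5% for 7. The highest shares were 64.6% for the pseudogene Rps3a2, 45.7% for Rps6, 28.6% for Rps10 and 9.25% for Rpl5. Copies that are members themselves were left out of these shares and sums. Thus Rps3a1, a near-identical copy of Rps3a2 with a mean of 2214 counts, was not added to the 21.1 counts of Rps3a2. With the other copies added, none of the 82 differences changed sign. For Rps3a2 this sum leaves out its most counted copy, so it does not settle the sign for the pair. Rps6, the classic target of the S6 kinases, was counted at 8.88, 12.9, 13.03 and 12.99 CPM with HCME-sEVs and 12.1, 12.3 and 15.8 CPM with LME-sEVs, against a median of 1179 CPM over the 82 genes, so its value stands for the reads assigned to it and not for its mRNA level. Among the 20 genes with no such copy, the median log2 fold change was 0.08, and Rpl17 was the 1 that rose. Among the 62 with copies it was 0.11, and 4 rose.

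Libraries of the same group differed from each other over these genes. The SD of a gene within groups ranged from 0.030 for Rpl6 to 0.62 for Rpl39l on the log2 scale, with a median of 0.11. The median over the members of a subunit varied less between replicates, with a pooled SD of 0.063 for the small and 0.071 for the large subunit. One component held 55.8% of the variance within groups, with HCME-sEV replicate 1 at one end (a score of 1.65) and HCME-sEV replicate 3 at the other (-0.98). Rpl39l, with a mean of only 30.6 counts, had by far the largest weight on it (0.60). Rpl15 and Rps6 had the most negative weights (-0.28 and -0.25). The component therefore rests in large part on a gene with few counts and does not describe all members alike. The deviation of the members from their group means, averaged over the 82 genes, was 0.098 in HCME-sEV replicate 1 and -0.092 in HCME-sEV replicate 4 on the log2 scale.

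Genes outside the naming rule that belong to the ribosome, or share its regulation, were compared next. Fau encodes a ribosomal protein made as a fusion, and Rack1 is a scaffold on the small subunit. Fau had 705, 716, 743 and 718 CPM with HCME-sEVs and 814, 842 and 810 CPM with LME-sEVs. Its groups did not overlap, and the log2 fold change was 0.19 (edgeR adjusted p = 0.0922). Rack1 had 0.12 (edgeR adjusted p = 0.386). Among 23 other TOP mRNAs, which include those of elongation and initiation factors, the median log2 fold change was 0.05 and 22 did not pass the test. Vim, a filament protein, fell by 0.38 on the log2 scale (edgeR adjusted p = 0.00615), and the initiation factor gene Eif3f had 0.23 (edgeR adjusted p = 0.0665). Of 22 genes of mTORC1, the S6 kinases and the LARP family, 21 did not pass, with a median of 0.00079. Over all tested genes, 8.96% passed in either direction. Larp4, which binds poly(A) tails and protects ribosomal protein mRNAs, fell by 0.29 on the log2 scale (edgeR adjusted p = 0.0226), and this call was lost in 4 of the 7 fits that left out 1 library. Eif4ebp1, a repressor of cap-dependent translation, had -0.27 (edgeR adjusted p = 0.1002).

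Genes for factors that build ribosomal proteins into subunits moved in the opposite direction. Of 27 tested chaperones and late assembly factors, 11 fell and 16 did not pass, with a median log2 fold change of -0.29 and 26 of 27 negative. For this list and those below, the share that fell over all tested genes was 5.21%. Grwd1, the chaperone of newly made Rpl3, fell by 0.57 on the log2 scale (65.3 ± 5.82 to 44.0 ± 2.12 CPM, edgeR adjusted p = 0.00154). Pno1, needed for the last step of small-subunit RNA processing, fell by 0.50 (117 ± 7.63 to 82.7 ± 4.22 CPM, edgeR adjusted p = 0.00136). Both remained called in all 7 fits that left out 1 library, whereas the count of 11 became 4 without LME-sEV replicate 2, 5 without LME-sEV replicate 3 and 8 to 12 without any 1 of the other libraries. Of 77 tested mitochondrial ribosomal protein genes, which are encoded in the nucleus like the cytosolic ones, 8 fell and 69 did not pass, with a median of -0.15. This count was 1 without LME-sEV replicate 2, 2 without LME-sEV replicate 3, 4 without HCME-sEV replicate 2, and 5 without HCME-sEV replicate 1 or LME-sEV replicate 1. Mrpl35 fell by 0.43 (edgeR adjusted p = 0.00398) and Mrpl47 by 0.46 (edgeR adjusted p = 0.0105) on the log2 scale. Of 10 genes of ribosome rescue and quality control, Rnf10, a ubiquitin ligase for small-subunit proteins, was the 1 that fell (by 0.50, edgeR adjusted p = 0.0249), and this call was lost without HCME-sEV replicate 4, LME-sEV replicate 1 or LME-sEV replicate 2. Abce1, which splits ribosomes after termination, had -0.25 (edgeR adjusted p = 0.0522). The differences between these lists were not tested.

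**Figure D5:**
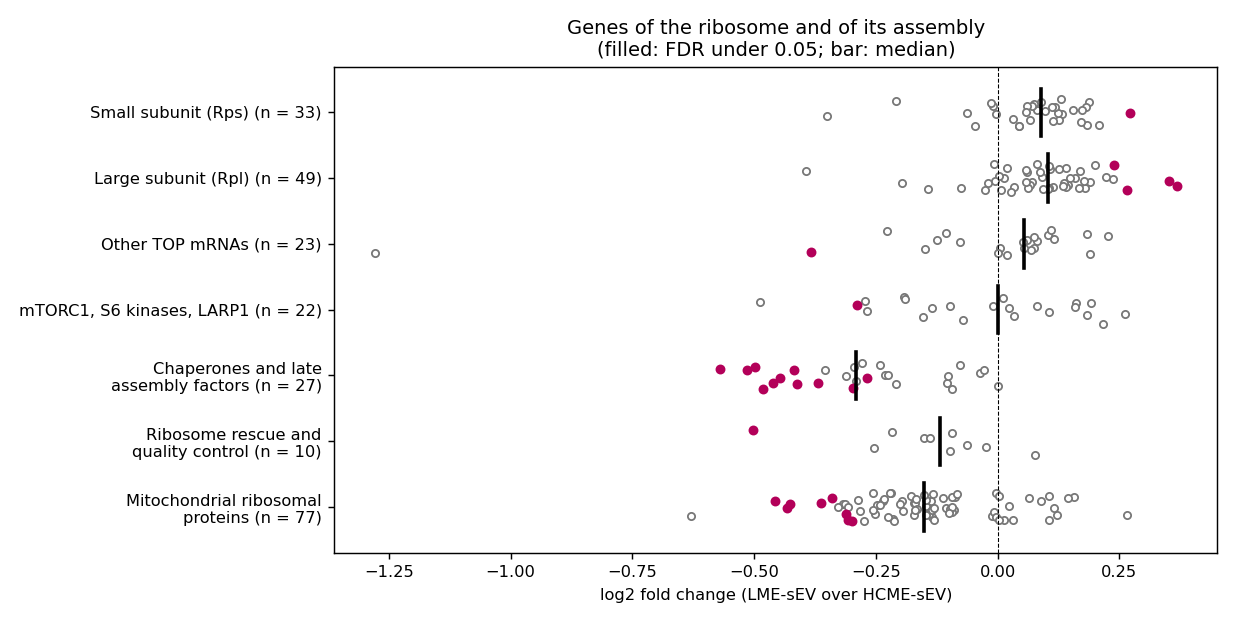
The log2 fold change (LME-sEV over HCME-sEV) of each tested gene in 7 groups of genes of the ribosome and its assembly (points: genes, placed at random within a row; filled: adjusted p under 0.05; bars: median). The medians are positive for both ribosomal subunits and lowest, at -0.29, for the chaperones and late assembly factors.

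Median fold changes lay between 0.09 and 0.11 on the log2 scale when the members were split by the gene features listed below, and no test was applied. Members with a pyrimidine run in the 30 bases around the start, such as Rpl28, had a median log2 fold change of 0.11 (33 genes). Members without such a run, such as Rps15, had 0.10 (28 genes). The 30 members that host small nucleolar RNAs within the gene had a median of 0.09 and the other 52 had 0.10. The 19 members whose exons overlap a gene on the opposite strand had a median of 0.11 and the other 63 had 0.09. The sources used here do not state whether counting used the strand, so reads of overlapping genes may be shared.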

How the data were processed

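The CD8+ T-cell libraries were made with a 3′ mRNA kit with UMIs. The authors trimmed reads with cutadapt 2.10, mapped them to GRCm38 with STAR 2.5.3a, collapsed fragments with UMI-tools 1.0.0 and counted with featureCounts (Subread 2.0.0). The deposited values are whole-number counts per gene symbol without normalization, in 7 columns. UMI collapse removes PCR copies, so a count stands for a captured molecule.

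The test was edgeR's quasi-likelihood F-test (edgeR 4.0.16, R 4.3.3) with TMM factors on every gene that averaged 5 counts or more, and Benjamini-Hochberg adjustment covered the whole table. Exact two-sided permutation tests enumerated all 35 assignments of libraries to groups, ranked by the size of the difference in means, with a smallest p of 0.0286; doubling the smaller tail would give 0.0571. Copies of the 3′ ends were looked up by blast 2.17.0 (300 bases, 95% identity). Scripts were tested on simulated data. The totals limit a level to about 0.580 to 0.804 CPM (3 counts), which covers counting error only.

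Members and gene lists were chosen with earlier results of these data known. Named genes were, in each subunit, those with the highest and lowest called fold changes and the 2 most abundant, the stalk, Rpl5 and Rpl11, paralogs with their parents, Rps6, Rps27a, Fau, Rack1 and the 2 smallest p-values of each other pathway list. Rpl6, Rpl15, Rps10, Rps15a, Rps23, Rps3a2 and the markers and genes below the minimum were named after their values were seen. A gene that this rule also names is not reported here. Alternatives were other normalizations (upper quartile, library totals, DESeq2 1.42.0 size factors, TMM without the members), filters, DESeq2 and limma-voom (limma 3.58.1) tests, the replicate number as a block, members without near-identical copies, and each library left out. Scaling to the members, the paralog ratios and the sums with copies were chosen after seeing the data.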

Additional observations from a re-analysis of the deposited data

Results flagged for a closer look

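In 49 results with 4 HCME-sEV libraries, 3 had a library whose gap to the next one was most of the range of the group, and chance gives about 1 in 20, or 2.45. All 3 were HCME-sEV replicate 1. For Rps15, that library had 1006 CPM against 886 to 892 CPM in the other 3, a gap of 0.949 of the range. For Rplp1, it had 4800 CPM against 4135 to 4221 CPM, a gap of 0.870 of the range. For Rps6, it had 8.88 CPM against 12.9 to 13.03 CPM, a gap of 0.965 of the range, from 37 counts in that library against 49 to 56.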

How the results depend on the processing

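Members that rose numbered 1 for the small and 4 for the large subunit in the main analysis, and 0 to 3 and 0 to 5 when each library was left out in turn. Members that fell were 0 to 1 (Rps27l, without HCME-sEV replicate 4) for the small subunit, the medians were 0.045 to 0.12 and 0.062 to 0.14, the share of counts differed by 0.703 to 1.12 percentage points, and 391 to 1305 genes were called overall against 1131. The small-subunit count was 3 with library totals and 2 with DESeq2. Scaling to the summed members gave 0 higher and 1 lower for the small and 1 higher for the large subunit, with medians of 0.0035 and 0.017, and a median of -0.074 over all genes. Without members that have near-identical 3′ ends, 0 and 1 rose, with a small-subunit median of 0.015. Over all genes 473 rose and 658 fell, against 612 and 465 with library totals, 522 and 543 with upper-quartile factors, and 215 and 943 with scaling to the members. Members with a positive fold change numbered 67, against 60 with the block and 46 with scaling to the members. Among the named genes, signs turned only for some that passed no test: with upper-quartile factors Rps20 0.0064, Rplp1 0.014 and Rpl23a 0.015; with library totals 0.032, 0.038 and 0.039; without the filter Rplp1 0.00013 and Rpl23a 0.0018; with filterByExpr 0.00058 and 0.0016; with the block Rpl22 -0.068 and Rpl7 -0.046; with scaling to the members Rplp2 -0.027, Rpl22 -0.080, Rpl7 -0.074 and Rpl36a -0.020. With each library left out, these spanned -0.061 to 0.042 for Rps20, -0.046 to 0.063 for Rplp1, -0.044 to 0.041 for Rpl23a, -0.068 to 0.069 for Rpl22 and -0.050 to 0.083 for Rpl7. The cause of these shifts was not tested. Same-numbered libraries correlated in their deviations by 0.072, 0.155 and 0.027 over all genes, and by 0.693, 0.203 and 0.454 over the members, where HCME-sEV replicate 2 correlated better with LME-sEV replicate 3 (0.362). The numbers were not taken as pairs, since no source says what they share and the all-gene values were not all over 0.1. The replicate block kept the 5 members, added 1 that fell (Rps27l, edgeR adjusted p = 0.00883) and called 1454 genes. A lone library was left in no group. Low counts limit Rpl39l, Rps3a2 and Rps6.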
